A study of Mus musculus with 18 samples.

Results

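Messenger RNA of infarcted mouse hearts was compared between hearts whose last injection was a nanomedicine and hearts whose last injection was PBS, a buffer, with each day compared within itself. All 18 libraries of the series entered: 9 with a nanomedicine last and 9 with PBS last, in 6 groups of 3 libraries. Every heart had a myocardial infarction. On day 3 after infarction mice received PBS (PBS_D3) or aNMP-2a (aNMP-2a_D3), and tissue was taken on day 4. Both day 7 groups had aNMP-2a first, followed on day 7 by PBS (aNMP-2a+PBS_D7) or aNMP-2b (aNMP-2a+2b_D7), with tissue on day 8. Both day 14 groups had received aNMP-2a and aNMP-2b and then PBS (aNMP-2a+2b+PBS_D14) or aNMP-2c (aNMP-2a+2b+2c_D14), with tissue on day 15. The last agent therefore differed between days, and after day 3 the PBS hearts carried the earlier agents too. Column headers name each agent for a macrophage state (M2a, M2b or M2c), and their composition is not given in the sources used here. Strain, age, sex and the number of animals per library are likewise not given there, nor whether replicates are separate mice, so p values measure the spread between these libraries.

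Values are FPKM, fragments scaled to transcript length and to the mapped fragments of a library, and 13116 of 18414 genes reached 1 FPKM in at least 3 of the 18 libraries and were tested. FPKM sums per library ran from 704356 to 814452, and 12181 to 12821 genes reached 1 FPKM. Read depth is unknown. Ventricular muscle markers (5 genes) summed to between 25770 and 60370 FPKM, which is high, as in heart tissue. The libraries differed in tissue of other kinds: the atrial light chain Myl7 reached 50 FPKM in 8 libraries, 5 with a nanomedicine last and 3 with PBS last, and 3 lung genes summed to 496.4 FPKM in aNMP-2a+2b_D7 replicate 1 and to 45.65 FPKM in aNMP-2a+2b+PBS_D14 replicate 3. The count of calls, and values of the lists and genes marked as such, are therefore also given without the 8 libraries rich in Myl7, which leaves 10. Among these, aNMP-2a_D3 replicate 2 and aNMP-2a+2b_D7 replicate 3 are the only nanomedicine libraries of days 3 and 7. The only PBS library of day 14 is then aNMP-2a+2b+PBS_D14 replicate 1, so values of this subset rest on a single library on 1 side of each day.

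Healing of an infarct runs from inflammation to scar, and macrophages clear dead muscle and then steer repair. Interferon gamma, made by killer cells and T cells, switches macrophages and vessel cells to antigen presentation, and type I interferon induces antiviral genes. Heart cells also keep a circadian clock in which ARNTL (also called BMAL1) with CLOCK or NPAS2 drives the Per genes, the Rev-erb genes and the PAR bZIP factors, and the Per products shut this drive off, so that Arntl and the Per group peak at opposite times of day.

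The shared shift was broad and mostly small. At a Benjamini-Hochberg adjusted p under 0.05 (limma, two-sided, on log2 of FPKM + 0.5 with day as a stratum), 582 of 13116 genes were called (4.44%), of which 395 were higher (3.01%) and 187 lower (1.43%) with a nanomedicine last. Higher genes were thus 67.9% of calls, against 56.9% and 58.6% under upper quartile and median-of-ratios scaling and 44% under quantile scaling. At least 2-fold changes were called in 82 higher genes (0.625%) and in 3 lower genes (0.0229%). Median log2 fold change over all genes tested was 0.02, and 55.6% of them were above 0. Among the 582 called genes, 567 had the same sign on all 3 days, against 44.4% of all genes tested. Calls come from the effect over the same 3 days and so favour genes of 1 sign, which makes this share no separate support. Genes called higher had median log2 fold changes of 0.30, 0.70 and 0.61 on days 3, 7 and 14, and genes called lower had medians of -0.30, -0.37 and -0.40. Fitted day by day, 234 genes were called on day 3 (1.78%), 1 on day 7 (0.00762%) and 0 on day 14, where 1096 had an unadjusted p under 0.05, and 532 of the 582 were called on no single day.

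Groups that did not overlap on any of the 3 days were counted in 39 higher genes (0.297% of genes tested) and 31 lower genes (0.236%). All 9 nanomedicine libraries lay above all 9 PBS libraries in 11 genes (0.0839%) and below them in 10 (0.0762%), a count that sets levels of 3 separately made tables side by side and carries no test. How many genes were called depended on single libraries. It fell to 113 without aNMP-2a+PBS_D7 replicate 3, 127 without aNMP-2a_D3 replicate 2, 138 without aNMP-2a+2b+PBS_D14 replicate 2, 170 without aNMP-2a+PBS_D7 replicate 2, 218 without aNMP-2a+2b+PBS_D14 replicate 1, 276 without aNMP-2a+2b+2c_D14 replicate 3, 327 and 378 without PBS_D3 replicates 2 and 1, and 370 without aNMP-2a+2b_D7 replicate 2, and it rose to 1091 without aNMP-2a+PBS_D7 replicate 1. Leaving out day 3, 7 or 14 gave 216, 13 and 140 genes. Without the libraries rich in Myl7 limma called 0 genes, with 1951 at an unadjusted p under 0.05.

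Under each of the 18 fits that left out 1 library, 107 of the 582 genes were called, 60 higher and 47 lower. These 107 genes had the same sign on all 3 days, and 19 of them were among those with no overlap between the 9 and the 9 libraries. Their log2 fold changes ran from -1.68 for Arntl to 1.79 for Ifit3. With day 3, 7 or 14 left out, 47, 10 and 39 of them were called, and all 107 kept their sign in each of these fits. Of the 105 that could be tested without the libraries rich in Myl7, all kept their sign. Their median absolute log2 fold change was 0.54, against 0.53 in all libraries. All these fits reuse libraries on which the 107 genes were chosen, so shared or kept signs and sizes are no separate test of them.

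**Figure D1:**
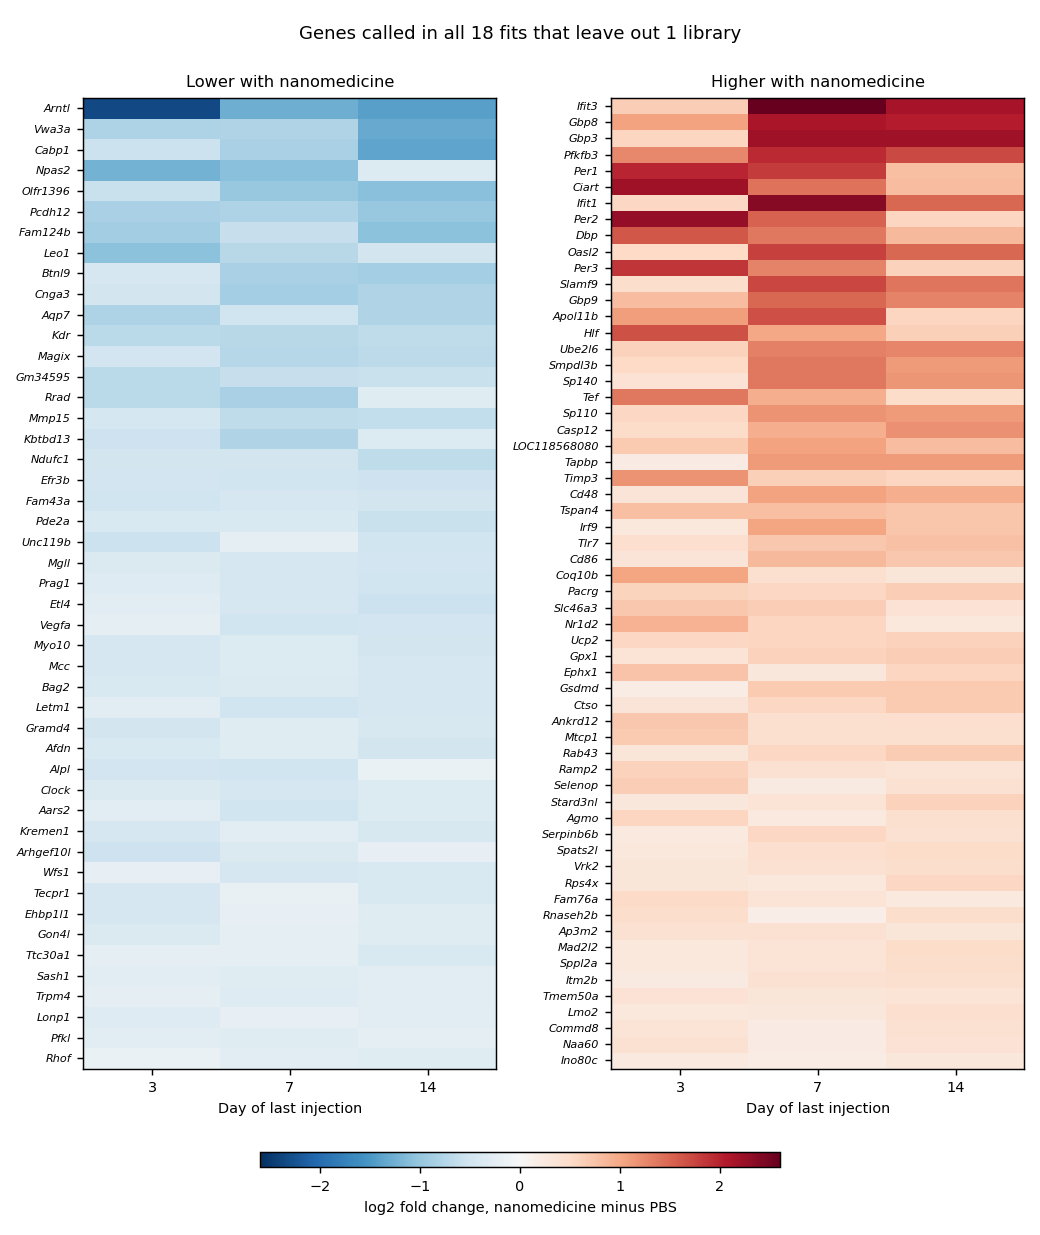
Log2 fold changes (nanomedicine minus PBS, log2 of FPKM + 0.5) within day 3, 7 and 14 for the 107 genes called in every fit that left out 1 library, lower genes on the left and higher genes on the right, each ordered by the shared fold change. Arntl (-2.34, -1.28 and -1.41) has the largest fall, and Ifit3, at 0.64 on day 3, reached 2.59 on day 7.

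Circadian clock genes shifted toward the Per group and away from Arntl. Of 11 tested Per, Rev-erb and PAR bZIP genes, 8 rose (72.7%, against 3.01% of all genes) and 0 fell, with a median log2 fold change of 1.09 (medians 1.62, 1.00 and 0.55 by day). On days 3, 7 and 14 alone limma called 9, 0 and 0 of the 11, with 10, 8 and 2 at an unadjusted p under 0.05. Of 9 tested activator and Cry genes 3 fell (33.3%, against 1.43% of all genes), namely the activators Arntl, Npas2 and Clock, and 1 rose, the repressor Cry2, by 0.34 (limma adjusted p = 0.0402). The other 5 did not pass, 4 of the 9 were above 0, and the list median was -0.03. Promoters of 3 of the risen genes are shown because each holds the E-box CACGTG that CLOCK and ARNTL bind. They run from 250 bases before to 50 after the start of transcription (RefSeq, GRCm38.p6). Capitals mark CACGTG, which reads the same on both strands. Per1 lies on the plus strand at chr11:69098699-69098998, Ciart on the minus strand at chr3:95882179-95882478 and Tef on the plus strand at chr15:81802423-81802722.
Per1: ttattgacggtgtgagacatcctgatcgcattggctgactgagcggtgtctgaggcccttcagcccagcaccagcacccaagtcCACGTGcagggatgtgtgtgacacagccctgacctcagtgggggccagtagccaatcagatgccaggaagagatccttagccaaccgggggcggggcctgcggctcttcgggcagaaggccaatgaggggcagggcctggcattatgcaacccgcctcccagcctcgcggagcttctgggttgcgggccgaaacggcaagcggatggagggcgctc
Ciart: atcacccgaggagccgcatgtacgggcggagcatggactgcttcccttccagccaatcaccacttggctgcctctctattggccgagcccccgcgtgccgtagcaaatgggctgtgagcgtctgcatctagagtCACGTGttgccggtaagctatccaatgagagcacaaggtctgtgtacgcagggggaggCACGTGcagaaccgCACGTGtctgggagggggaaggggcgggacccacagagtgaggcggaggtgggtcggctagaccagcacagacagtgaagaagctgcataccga
Tef: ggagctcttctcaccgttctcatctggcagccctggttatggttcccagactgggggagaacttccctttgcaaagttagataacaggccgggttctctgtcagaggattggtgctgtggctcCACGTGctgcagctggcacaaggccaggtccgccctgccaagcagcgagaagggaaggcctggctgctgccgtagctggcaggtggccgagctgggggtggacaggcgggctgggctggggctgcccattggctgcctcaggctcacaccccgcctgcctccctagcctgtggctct
First bases of the matches lie 166 bases before the start in Per1, 116, 58 and 44 before it in Ciart, and 127 before it in Tef. CACGTG was found in a window of 4 of the 9 list members with a window (44.4%) and of 1199 of 10439 tested genes with one (11.5%). A match is only a match of letters.

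Per1, a repressor of the clock loop that glucocorticoids also induce, was at 4.90, 4.27 and 4.67 FPKM in PBS_D3 and at 22.6, 20.7 and 16.1 FPKM in aNMP-2a_D3. On day 7 it was at 4.65, 3.19 and 6.03 FPKM with PBS and at 17.3, 17.6 and 16.7 FPKM with aNMP-2b. Day 14 values were 11.1, 5.15 and 16.1 FPKM with PBS and 17.3, 26.6 and 11.0 FPKM with aNMP-2c. The groups stood apart on days 3 and 7 and overlapped on day 14. Its shared log2 fold change was 1.53 ± 0.23 (SE, 9 against 9 libraries; limma adjusted p = 0.00612; exact permutation within days, two-sided p = 0.00075). Ciart, a repressor of CLOCK and ARNTL, ran from 0.94 to 7.50 FPKM (median 1.97) with PBS last and from 2.77 to 15.01 FPKM (median 9.32) with a nanomedicine last, a log2 fold change of 1.47 ± 0.24 (limma adjusted p = 0.00847).

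Per2 and Per3, partners of Per1 in the repressor complex, rose by 1.45 and 1.25 on the log2 scale. Among the PAR bZIP factors, which carry clock output to metabolic genes, Dbp rose by 1.28, Hlf by 1.09 and Tef by 0.94. Nr1d2, a Rev-erb receptor that represses Arntl, rose by 0.57. Limma adjusted p of these 6 genes lay between 0.00847 (Hlf) and 0.0201 (Per2). The sister receptor gene Nr1d1 did not pass (log2 fold change 0.14 ± 0.13, limma adjusted p = 0.562), with 73.5, 72.5 and 79.3 FPKM in aNMP-2a_D3 beside 84.7, 85.8 and 64.1 FPKM in PBS_D3. Nor did the repressor Cry1, at 0.29 ± 0.14 (limma adjusted p = 0.247), whose log2 fold changes were 0.85, -0.13 and 0.14 on days 3, 7 and 14.

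Arntl, the activator with which CLOCK pairs, was at 9.03, 10.6 and 10.4 FPKM in PBS_D3 and at 1.22, 1.51 and 2.04 FPKM in aNMP-2a_D3. With PBS it was at 14.2, 18.6 and 8.90 FPKM on day 7 and at 6.83, 6.00 and 10.8 FPKM on day 14. The matching nanomedicine libraries held 3.29, 4.94 and 8.53 FPKM and 3.50, 1.40 and 3.31 FPKM. On each day every nanomedicine library lay below every PBS library. Its fold change was the largest fall among called genes, -1.68 ± 0.22 on the log2 scale (limma adjusted p = 0.00317, exact permutation p = 0.00025, the smallest that the 8000 arrangements allow). Npas2, which stands in for CLOCK, fell by 0.89 and Clock fell by 0.39 (limma adjusted p = 0.00847 and 0.0108).

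**Figure D2:**
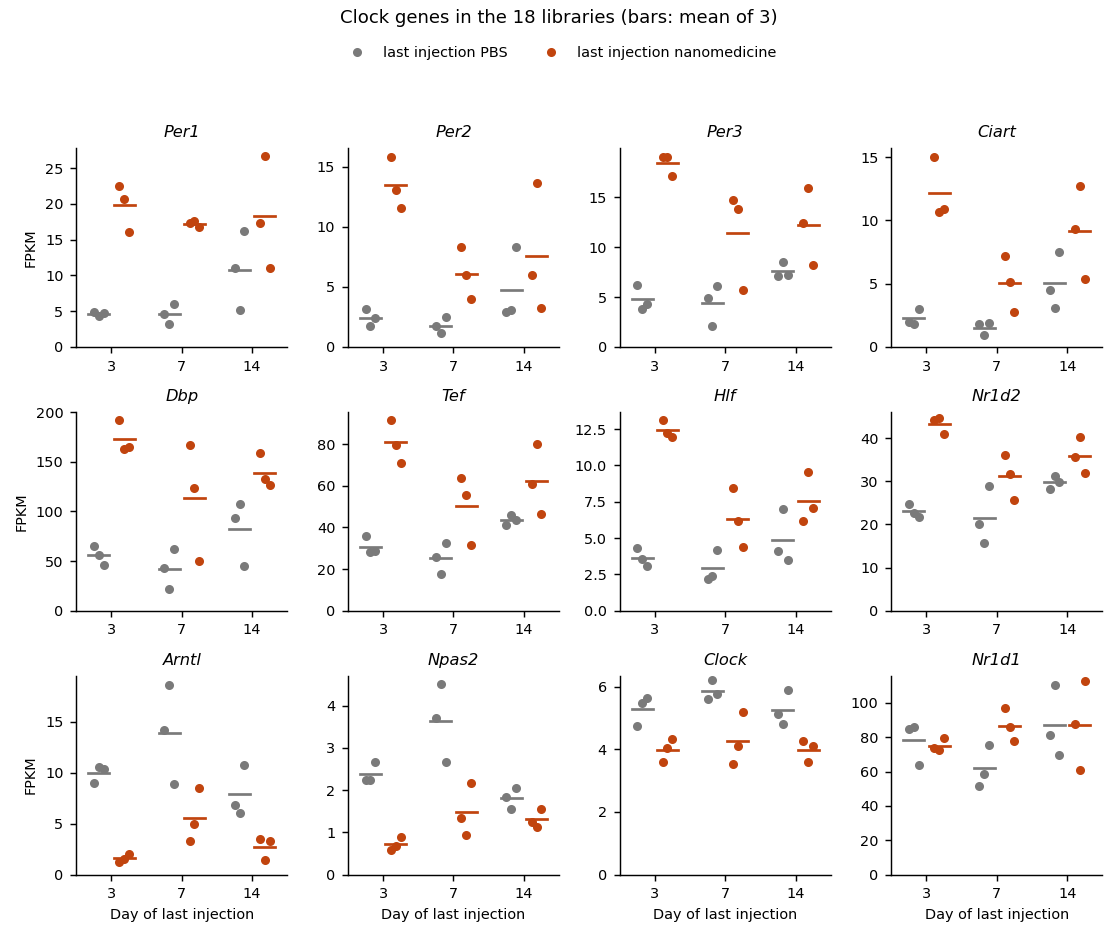
FPKM of 12 clock genes (y axis, linear, from 0) by day of the last injection (x axis), with 1 point per library, grey for PBS last and orange for a nanomedicine last, and bars at the mean of 3. Arntl, Npas2 and Clock are lower and the Per, PAR bZIP and Ciart genes higher on average in nanomedicine libraries on each day, and Nr1d1 overlaps on days 3 and 14.

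The 8 rises and 3 falls held in each fit without 1 library. With day 14 left out 8 of the 11 genes were again called. Without day 3, 0 were called by limma (8 list members with an unadjusted p under 0.05, Per1 at 1.31, adjusted p = 0.0588), and without day 7 again 0 (10 members, Per1 at 1.38, adjusted p = 0.108). Arntl was called with any 1 day left out, at -1.34, -1.87 and -1.81 without days 3, 7 and 14. Npas2 was not called without day 3 or 7 (-0.72 and -0.80), nor Clock without any 1 day (-0.39, -0.36 and -0.40). Without the libraries rich in Myl7, 8 of the 11 genes had an unadjusted p under 0.05 and 0 were called, with Per1 at 1.34 (limma adjusted p = 0.0772). The hour at which hearts were taken is not given in the sources used here, and its part in the clock results was not tested.

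Glucocorticoid-induced genes, which share Per1 with the clock, had few calls. Of 15 tested, 3 rose (20%, against 3.01% of all genes) and 0 fell, with a median log2 fold change of 0.20. Besides Per1 these were Lcn2, the iron-binding lipocalin of neutrophils and stressed tissue, at 2.01 ± 0.52 (limma adjusted p = 0.0402), and Tsc22d3, the glucocorticoid-induced leucine zipper, at 0.88 ± 0.23 (limma adjusted p = 0.0405). Tsc22d3 was called in 6 of the 18 fits without 1 library and Lcn2 in 5, with adjusted p up to 0.0831 and 0.0891.

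Neutrophil genes, of which Lcn2 is one, were mostly above 0 but had 1 call in each list. Of 9 granule genes 1 rose (11.1%), Lcn2 itself, and all 9 were above 0 with a median of 1.19. Of 12 mature neutrophil genes 1 rose (8.33%), 10 were above 0 and the median was 0.45. The call was Hdc, which makes histamine, at 0.92 ± 0.22 (limma adjusted p = 0.0309, called in 12 of 18 fits without 1 library). Of all genes tested 3.01% were called higher and 55.6% were above 0, so 1 call in such short lists says little of them. Neutrophil markers S100a8, S100a9 and Csf3r summed to 57.71 to 315.8 FPKM against 104.2 to 206.8 FPKM with PBS on day 3, 282.4 to 806.4 against 29.47 to 560.1 FPKM on day 7, and 108 to 2619 against 12.14 to 291 FPKM on day 14. The groups overlap on each day, and the part of these markers in the Lcn2 result was not tested.

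Interferon genes rose in nearly every member tested, with higher medians on days 7 and 14 than on day 3. Of 16 tested GTPases induced by interferon gamma (guanylate-binding proteins and IRG proteins, which attack vacuoles of pathogens), 13 rose (81.2%), with a median log2 fold change of 1.76 (0.71, 2.44 and 2.29 by day). Of 24 interferon-stimulated genes, 20 rose (83.3%), with a median of 1.09 (0.28, 1.75 and 1.19 by day). Of all genes tested 3.01% were called higher. None of either list fell. The other 7 members were also above 0, as were 55.6% of all genes tested, and did not pass. Both lists draw on the same libraries, and several members respond to both kinds of interferon.

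Promoters of Ifit3, Gbp3 and Gbp2 are shown because all 3 hold the core of the interferon-stimulated response element, GAAA, any pair of bases (NN) and GAAA (RefSeq, GRCm38.p6, all on the plus strand). The windows are chr19:34583279-34583578, chr3:142559794-142560093 and chr3:142620413-142620712. Capitals mark the match, which in these windows lies on the other strand and so reads TTTC, NN, TTTC.
Ifit3: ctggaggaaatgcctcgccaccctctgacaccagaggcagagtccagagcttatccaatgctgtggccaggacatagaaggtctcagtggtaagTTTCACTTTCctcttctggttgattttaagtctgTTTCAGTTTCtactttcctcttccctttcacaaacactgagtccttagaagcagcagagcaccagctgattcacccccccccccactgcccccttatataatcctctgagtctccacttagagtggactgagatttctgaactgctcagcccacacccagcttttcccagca
Gbp3: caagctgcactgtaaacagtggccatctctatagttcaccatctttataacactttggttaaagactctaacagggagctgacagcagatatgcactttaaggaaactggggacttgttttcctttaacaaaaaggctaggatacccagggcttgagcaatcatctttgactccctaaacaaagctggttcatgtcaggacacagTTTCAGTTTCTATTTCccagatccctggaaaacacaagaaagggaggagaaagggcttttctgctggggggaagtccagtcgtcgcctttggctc
Gbp2: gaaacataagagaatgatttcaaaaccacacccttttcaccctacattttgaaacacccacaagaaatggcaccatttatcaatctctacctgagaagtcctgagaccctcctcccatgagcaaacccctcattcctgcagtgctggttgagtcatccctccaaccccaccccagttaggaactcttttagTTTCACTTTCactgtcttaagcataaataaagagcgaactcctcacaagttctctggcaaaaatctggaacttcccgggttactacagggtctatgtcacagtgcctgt
In Ifit3 the matches start 156 and 122 bases before the transcript start, in Gbp3 45 and 39 bases before it, overlapping each other, and in Gbp2 59 bases before it. Searched on both strands, the letters were found for 9 of 10 GTPase genes with a window (90.0%) and 11 of 18 interferon-stimulated genes (61.1%), against 411 of 10439 tested genes (3.94%).

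Ifit3, an RNA-sensing antiviral protein, was at 63.3, 92.99 and 79.9 FPKM in PBS_D3 and at 74.2, 199 and 121 FPKM in aNMP-2a_D3, which overlap. On day 7 it was at 26.8, 19.9 and 25.8 FPKM with PBS and at 80.3, 101 and 386 FPKM with aNMP-2b. Day 14 values were 33.5, 21.7 and 33.4 FPKM with PBS and 87.8, 103 and 237 FPKM with aNMP-2c. Both later days thus showed no overlap, with the highest value in replicate 3 of each nanomedicine group. The shared log2 fold change was 1.79 ± 0.35 (limma adjusted p = 0.0165, exact permutation p = 0.00075).

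Gbp2, which coats the vacuoles of intracellular pathogens, was at 59.7, 87.4 and 57.8 FPKM in PBS_D3 and 72.2, 295 and 173 FPKM in aNMP-2a_D3. With PBS it was at 39.9, 29.03 and 28.3 FPKM on day 7 and 46.6, 28.4 and 41.7 FPKM on day 14, and with the agents of those days at 111, 61.02 and 771 FPKM and 97.7, 236 and 373 FPKM. A single library, aNMP-2a+2b_D7 replicate 3, holds the highest value. Its log2 fold change was 2.01 ± 0.43 (limma adjusted p = 0.0223), and the call held in 15 of the 18 fits without 1 library, with adjusted p up to 0.053 without aNMP-2a_D3 replicate 2, aNMP-2a+PBS_D7 replicate 3 or aNMP-2a+2b+PBS_D14 replicate 2. Its relatives Gbp3, Gbp8 and Gbp9 rose by 1.65, 1.74 and 1.19 and were called in all 18 such fits. Gbp6 was listed at 1.74 ± 0.56 and did not pass (limma adjusted p = 0.0849), with -0.46 on day 3 beside 3.23 and 2.43 later. Gbp genes are near-identical in parts, as are Tgtp1 and Tgtp2 and Serpina3f and Serpina3g, so counting may have divided their fragments unevenly.

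**Figure D3:**
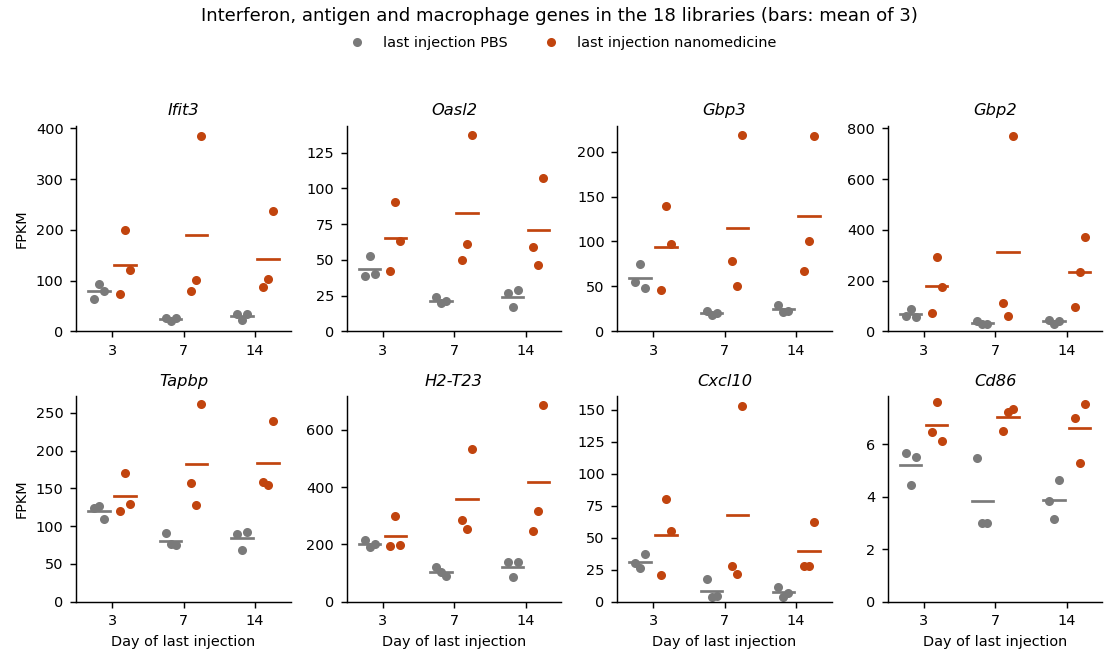
FPKM of 8 interferon, antigen presentation and macrophage genes (y axis, linear, from 0) by day of the last injection, with 1 point per library and bars at the mean of 3. Orange nanomedicine libraries lie above all grey PBS libraries on days 7 and 14 for Ifit3, Oasl2, Gbp3, Gbp2 and Cxcl10, and overlap them on day 3.

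The 12 largest rises among called genes with the same sign on all days are mostly interferon-induced genes. Gm12250, an IRG GTPase, had the largest at 2.75 ± 0.70 on the log2 scale (limma adjusted p = 0.04), running from 1.36 to 52.6 FPKM (median 4.63) with PBS last and from 9.98 to 355 FPKM (median 39.3) with a nanomedicine last. It was followed by the protease inhibitors Serpina3f (2.46) and Serpina3g (2.14), the interferon-induced transcription factor Batf2 (2.27), the GTPases Tgtp2 (2.12), Iigp1 (2.08), Gbp2, Tgtp1 (1.82) and Gbp4 (1.79), the T cell chemokines Cxcl9 (2.00) and Cxcl10 (1.87), and Lcn2. None of these 12 was called in every fit without 1 library, which called between 4 (Serpina3g) and 15 (Gbp2 and Gbp4) of the 18 times. Among smaller rises, Oasl2, an antiviral oligoadenylate synthetase relative, at 1.26 ± 0.24, and Irf9, the DNA-binding part of the type I interferon complex, at 0.67 ± 0.13, passed in all 18, whereas Irf7, at 1.41 ± 0.33, passed in 11.

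Calls in both interferon lists depended on several libraries and on the later days. Without aNMP-2a_D3 replicate 2, aNMP-2a+PBS_D7 replicate 3 or aNMP-2a+2b+PBS_D14 replicate 2, 3 GTPase genes were called each time, and without aNMP-2a+PBS_D7 replicate 2, 6 were. For the interferon-stimulated list the same 4 omissions gave 5, 4, 5 and 6 genes, and leaving out aNMP-2a+2b+PBS_D14 replicate 1, aNMP-2a+2b+2c_D14 replicate 3 or aNMP-2a+2b_D7 replicate 2 gave 9, 11 and 12. Without day 3, 15 GTPase and 18 interferon-stimulated genes were called, with medians of 2.36 and 1.46. Without day 7 or day 14, 0 were called in either list by limma, with 13 and 13 GTPase genes and 20 and 22 interferon-stimulated genes at an unadjusted p under 0.05. Gbp2 was then at 1.80 and 1.81 (limma adjusted p = 0.108 and 0.147) and Ifit3 at 1.39 and 1.61. With the libraries rich in Myl7 left out the medians were 2.46 and 1.55. The only nanomedicine libraries then left on days 3 and 7 are aNMP-2a_D3 replicate 2 and aNMP-2a+2b_D7 replicate 3. Both held the highest Ifit3 and Gbp2 values of their groups, and the part of this in the medians was not tested.

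Among antigen presentation genes, 12 class I and 3 class II members rose. Of 19 MHC class I and peptide processing genes, 12 rose (63.2%, against 3.01% of all genes), with a median of 0.80 (-0.14, 1.31 and 1.12 by day). Only 8 of the 19 had the same sign on all 3 days. On days 3, 7 and 14 alone, 0, 19 and 19 had an unadjusted p under 0.05 by limma. Tapbp, the chaperone that loads peptides on class I, ran from 68.5 to 126 FPKM (median 91.1) with PBS last and from 120.4 to 262 FPKM (median 157) with a nanomedicine last (0.81 ± 0.17, limma adjusted p = 0.0196), and was called in all 18 fits without 1 library. H2-T23, the nonclassical molecule that inhibits killer cells, rose by 1.17, and Nlrc5, the transactivator of class I genes, by 1.30 (limma adjusted p = 0.0248 and 0.0283). Class I genes of the H2-D, H2-Q and H2-T group share sequence, so their separate values are uncertain. For class II, 3 of 11 genes rose (27.3%, against 3.01% of all genes), with a median of 0.70. They were Ciita, the class II transactivator, at 1.23 ± 0.30, and the peptide exchange genes H2-DMb1 and H2-DMa at 1.07 and 1.07. On days 3, 7 and 14 alone, 0, 7 and 8 class II genes had an unadjusted p under 0.05 by limma.

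Few of these presentation calls held without single libraries. With replicate 2 of aNMP-2a_D3, of aNMP-2a+PBS_D7 or of aNMP-2a+2b+PBS_D14 left out, or aNMP-2a+PBS_D7 replicate 3, 1 class I gene was called each time. With any 1 of the other 14 libraries left out, between 2 and 16 class I genes were called. For class II 0 were called by limma in 6 of the 18 fits, among them those 4, with aNMP-2a+2b+2c_D14 replicates 2 and 3 as the others. Without day 3, 18 class I and 2 class II genes were called. Without day 7 or 14, 0 were (8 and 12 class I genes and 3 and 3 class II genes at an unadjusted p under 0.05). Without the libraries rich in Myl7 limma called 0 in both lists, with 19 class I and 3 class II genes at an unadjusted p under 0.05 (8 class II genes in all libraries) and medians of 1.01 and 0.46. H2-T23 without day 7 or 14 stood at 0.91 and 0.93 with limma adjusted p of 0.217 and 0.147.

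Killer cell genes leaned higher. Of 12 tested, 5 rose (41.7%, against 3.01% of all genes) and all 12 were above 0. The median was 0.87 (0.00, 1.38 and 1.41 by day). On days 3, 7 and 14 alone, 0, 11 and 10 of the 12 had an unadjusted p under 0.05 by limma. Nkg7, a granule protein of killer cells, rose by 1.33, the receptor gene Klrk1 (NKG2D) by 1.16, the chemokine Ccl5 by 1.16 and the granzyme Gzma by 1.34, and the granzyme Gzmb was also called (limma adjusted p from 0.0387 to 0.0498). Gzma was at 14.7, 6.98 and 19.6 FPKM in PBS_D3 and 9.24, 18.8 and 6.86 FPKM in aNMP-2a_D3, at 5.96, 5.22 and 5.34 and 30.2, 37.8 and 44.2 FPKM on day 7, and at 6.13, 3.79 and 4.45 and 11.3, 11.3 and 28.2 FPKM on day 14, always PBS first. Groups overlapped on day 3 and stood apart on days 7 and 14. Perforin (Prf1), which opens the target cell, did not pass, at 0.71 ± 0.27 (limma adjusted p = 0.132).

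These killer cell calls rest on single libraries. Limma called 0 of the list in 11 of the 18 fits without 1 library (Nkg7 was called in 6), and without day 7 or day 14 limma called 0 (4 and 7 members at an unadjusted p under 0.05). Without day 3, 7 were called, with Gzma at 2.12. Without the libraries rich in Myl7 0 were called by limma (6 at an unadjusted p under 0.05, against 10 in all libraries), with Gzma at 1.58 and Ccl5 at 0.71. T cell receptor genes were not called: 0 of 12 passed, although all 12 were above 0 and 9 had an unadjusted p under 0.05. The T cell markers Cd3d, Cd3e and Cd3g summed to 15.28 to 24.06 FPKM in aNMP-2a+2b+2c_D14 and to 3.71 to 9.3 FPKM in its PBS group, to 8.43 to 19.01 against 2.83 to 12.49 FPKM on day 7, and to 2.7 to 9.25 against 1.44 to 8.57 FPKM on day 3. In bulk RNA more cells of a type and more RNA per cell cannot be told apart, and the part of these markers in the interferon and killer cell results was not tested.

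**Figure D4:**
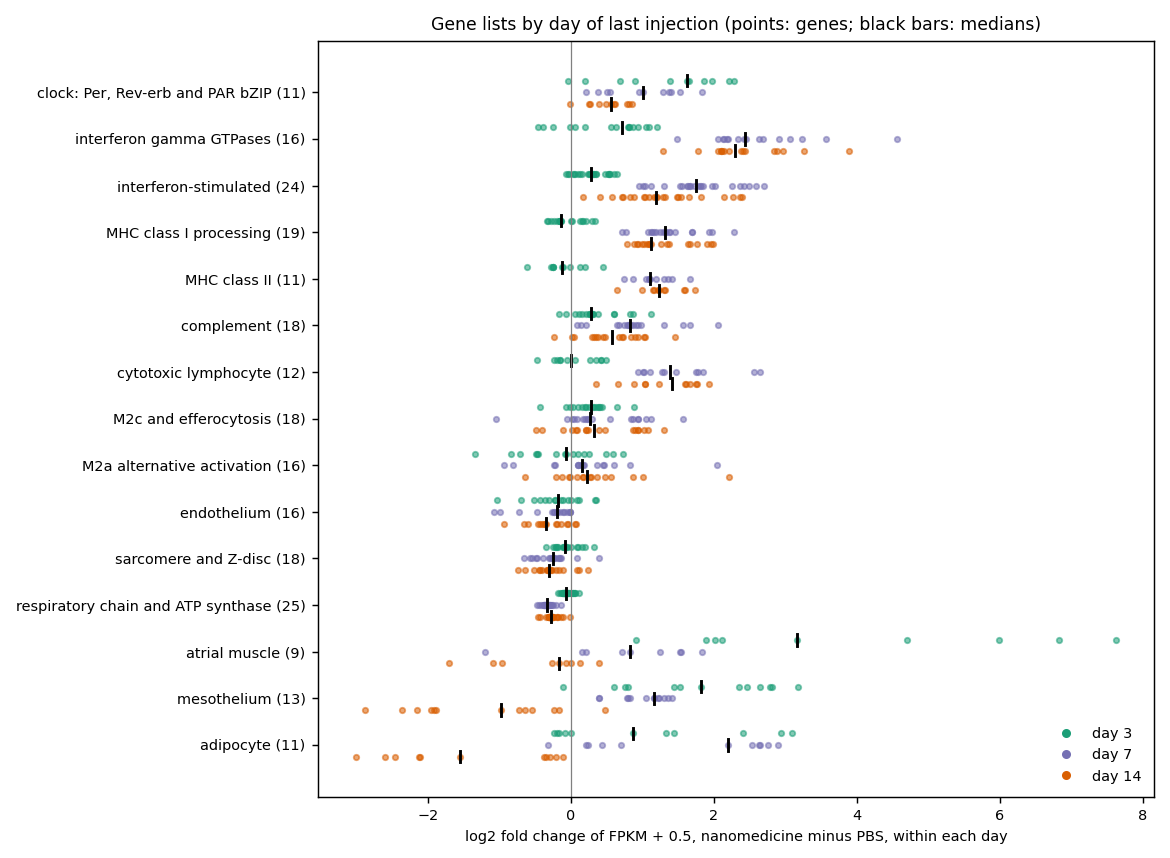
Log2 fold change within each day (x axis, nanomedicine minus PBS) for the tested members of 15 gene lists (y axis, number of genes in brackets), with 1 point per gene, coloured by day, and black bars at the medians. Interferon, MHC and killer cell lists have medians between -0.14 and 0.71 on day 3 and above 1 on days 7 and 14, the clock list has medians of 1.62, 1.00 and 0.55, and atrial, mesothelial and fat cell lists change sign between days.

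Complement genes leaned higher. Of 18 tested, 6 rose (33.3%, against 3.01% of all genes) and all 18 were above 0, with a median of 0.62. Serping1, the C1 inhibitor, ran from 178 to 356 FPKM (median 291) with PBS last and from 351 to 572 FPKM (median 459) with a nanomedicine last (0.64 ± 0.14, limma adjusted p = 0.0226). C1qc, a chain of the recognition protein C1q, rose by 0.73, C1ra, its protease, by 0.66, and Cfb, the protease of the alternative pathway, by 1.24. Neither C3, the central component, nor C4b passed (C3 0.79 ± 0.23 and C4b 0.84 ± 0.25, limma adjusted p = 0.0646 for both). Without aNMP-2a_D3 replicate 2 or aNMP-2a+PBS_D7 replicate 3, 0 complement genes were called by limma. Without aNMP-2a+PBS_D7 replicate 2 or aNMP-2a+2b+PBS_D14 replicate 2, 1 was called, and 2 without PBS_D3 replicate 2, any library of aNMP-2a+2b_D7 or aNMP-2a+2b+PBS_D14 replicate 1. Without aNMP-2a+2b+2c_D14 replicate 1 or 3, 3 were called. Without day 7 limma called 0 (6 at an unadjusted p under 0.05), without day 3 or 14 it called 4 and 3, and without the libraries rich in Myl7 it called 0 (12 at an unadjusted p under 0.05; median 0.70). Serping1 was at 0.57 without day 7 (limma adjusted p = 0.178).

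The macrophage states that name the agents were read as 3 gene lists, with calls over all days and so over 3 different last agents. Medians on days 3, 7 and 14 were -0.08, 0.15 and 0.22 for M2a and -0.02, 0.61 and 0.67 for M2b (0.46 over all days). For M2c they were 0.28, 0.26 and 0.32. Whether an agent moved the list of its own name was not tested. Of the M2a list (alternative activation), 0 of 16 genes were called by limma (2 at an unadjusted p under 0.05; median 0.12), and Chil3, a chitinase-like protein of that state, stood at 1.27 ± 0.53 (adjusted p = 0.17) with -0.46, 2.04 and 2.21 by day. Of the M2b list, 1 of 11 rose (9.09%, where 3.01% of all genes did, so the count says little of the list): Cd86, the costimulatory ligand for T cells. Cd86 was at 5.67, 4.46 and 5.50 FPKM in PBS_D3 and 6.47, 7.59 and 6.11 FPKM in aNMP-2a_D3, at 5.48, 3.00 and 3.01 and 6.51, 7.22 and 7.33 FPKM on day 7 with PBS and aNMP-2b, and at 3.82, 3.16 and 4.63 and 6.99, 5.29 and 7.55 FPKM on day 14 with PBS and aNMP-2c. Its groups did not overlap on any day (0.63 ± 0.12, limma adjusted p = 0.014; exact permutation p = 0.00025), and it passed in all 18 fits without 1 library, but not without day 7 (0.52, limma adjusted p = 0.113) or day 14 (0.59, 0.0897). Fcgr3, an antibody receptor of the same list whose groups did not overlap on any day either, did not pass (0.62 ± 0.18, limma adjusted p = 0.0575).

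In the M2c and efferocytosis list, 4 of 18 genes rose (22.2%, against 3.01% of all genes), with a list median of 0.36. They were Selenop, a selenium carrier of resident macrophages, Timd4, a receptor for dying cells, and C1qb and C1qc. Selenop ran from 344 to 480.4 FPKM (median 366) with PBS last and from 429 to 631 FPKM (median 509.6) with a nanomedicine last (0.42 ± 0.08, limma adjusted p = 0.0165), and Timd4 rose by 0.93 (limma adjusted p = 0.0306). Selenop held in every fit without 1 library, whereas Timd4 held in 11 and C1qc in 7 of 18. Without day 7 or 14, 0 of the list were called by limma (7 and 8 at an unadjusted p under 0.05; Selenop 0.52 and 0.44), and without day 3, 1. Leaving out 1 library gave between 1 and 7 calls. Without the libraries rich in Myl7 limma called 0 (8 at an unadjusted p under 0.05), with Selenop at 0.41 and Cd86 at 0.70. Macrophage markers Adgre1, Csf1r, Cd68 and C1qa summed to 674.3 to 805.8 FPKM against 529.1 to 689.2 FPKM with PBS on day 3, 671.8 to 828.5 against 321.4 to 684 FPKM on day 7, and 507.2 to 837.8 against 213.6 to 522 FPKM on day 14. Their part in the complement, MHC and M2 results was not tested.

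Lysosomal genes showed smaller changes. Of 15 tested, 2 rose (13.3%, against 3.01% of all genes), with a median of 0.26. Ctso, the cysteine protease cathepsin O, was at 12.7, 13.9 and 13.1 FPKM in PBS_D3 and 14.7, 18.02 and 17.6 FPKM in aNMP-2a_D3, and over all days ran from 11.4 to 13.9 FPKM (median 12.7) with PBS last and from 14.7 to 22.96 FPKM (median 18.02) with a nanomedicine last, with no overlap. Its log2 fold change was 0.51 ± 0.07 (limma adjusted p = 0.00317, exact permutation p = 0.00025), and 0.50 without day 7 (limma adjusted p = 0.071), and 0.58 without the libraries rich in Myl7 (0.0701). Lamp2, a membrane protein of the lysosome, rose by 0.39 (limma adjusted p = 0.027, called in 14 of 18 fits without 1 library and in 0 of 3 without a day).

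The main receptor for VEGF fell. Kdr (VEGF receptor 2, the main growth receptor of vessel cells) had the smallest p of all genes, with chr5:75932827-75979072 as its position in GRCm38.p6. It was at 66.4, 72.2 and 81.6 FPKM in PBS_D3 and 45.2, 42.98 and 47.1 FPKM in aNMP-2a_D3. With PBS it was at 67.4, 73.1 and 87.5 FPKM on day 7 and 77.6, 76.0 and 66.4 FPKM on day 14, and with the agents of those days at 41.6, 51.98 and 43.3 and 52.2, 40.4 and 46.4 FPKM. All 9 nanomedicine libraries lay below all 9 PBS libraries. The log2 fold change was -0.69 ± 0.07 (limma adjusted p = 0.000181, exact permutation p = 0.00025) and nearly the same on each day (-0.69, -0.73 and -0.66). Kdr was called without any 1 library (-0.66 to -0.72) and without any 1 day, and stood at -0.74 without the libraries rich in Myl7 (limma adjusted p = 0.0568).

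Its ligand Vegfa, the main signal for vessel growth, fell by 0.42 (limma adjusted p = 0.0194), from 138 to 191 FPKM (median 159) with PBS last and from 101 to 149.8 FPKM (median 122) with a nanomedicine last. Without day 3, 7 or 14 Vegfa was at -0.50, -0.38 and -0.39 and was not called (limma adjusted p = 0.0593, 0.158 and 0.0518), nor without the libraries rich in Myl7 (-0.31, 0.142). These were the 2 calls among 10 VEGF ligands and receptors (20%, against 1.43% of all genes called lower), of which 9 were below 0. Pgf, a ligand of the other VEGF receptor, was the exception at 0.39 ± 0.15 (limma adjusted p = 0.151). Of 16 endothelial genes 2 fell (12.5%), Kdr and the tight junction gene Cldn5 (-0.71 ± 0.18, limma adjusted p = 0.0402, called in 8 of 18 fits without 1 library), and 14 were below 0 with a median of -0.17. Cdh5, the cadherin of endothelial junctions, did not pass (-0.32 ± 0.10, limma adjusted p = 0.0743).

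Pcdh12 and Pde2a, which are in neither list, also fell. They were named for a large fall and a small p, so they do not stand for vessel genes as a whole. Ramp2 and Lmo2, in neither list either, rose by 0.45 and 0.34 (limma adjusted p = 0.00847 for both). Other vessel genes outside the lists were not surveyed. Pcdh12, a protocadherin of endothelial junctions, ran from 8.25 to 12.9 FPKM (median 10.02) with PBS last and from 3.31 to 9.75 FPKM (median 4.83) with a nanomedicine last (-0.88 ± 0.15, limma adjusted p = 0.00847), and was not called without day 3 (-0.90, limma adjusted p = 0.056). Pde2a, the phosphodiesterase that cyclic GMP stimulates, was at 38.6, 41.4 and 40.2 FPKM in PBS_D3 and 33.8, 29.2 and 27.9 FPKM in aNMP-2a_D3, and over all days ran from 38.6 to 52.1 FPKM (median 41.4) with PBS last and from 27.9 to 34.95 FPKM (median 31.1) with a nanomedicine last, with no overlap. Its log2 fold change was -0.46 ± 0.06 (limma adjusted p = 0.00317), called without any 1 library and any 1 day. Pcdh12 and Pde2a were at -1.07 and -0.49 without the libraries rich in Myl7 (limma adjusted p = 0.0568 for both). Endothelial markers Pecam1, Cdh5, Kdr and Tie1 summed to 249.9 to 299 FPKM against 304 to 369.9 FPKM with PBS on day 3, 276.9 to 390 against 349.6 to 397.5 FPKM on day 7, and 267.7 to 302 against 361.1 to 387.6 FPKM on day 14. These sums include Kdr, so part of their difference is the fall of Kdr itself. Pecam1 by itself was at -0.10 on the log2 scale and did not pass (limma adjusted p = 0.438). The part of these marker levels in the vessel results was not tested.

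**Figure D5:**
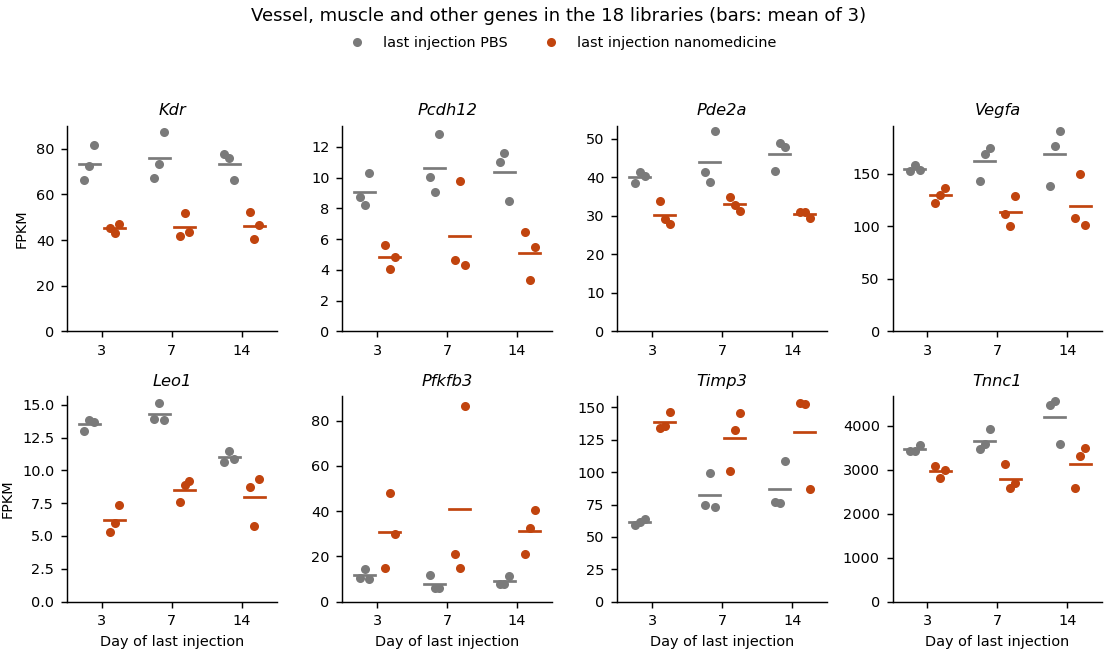
FPKM of 8 vessel, muscle and other genes (y axis, linear, from 0) by day of the last injection, with 1 point per library, grey for PBS last and orange for a nanomedicine last, and bars at the mean of 3. Kdr, Pde2a and Leo1 stand apart in all 18 libraries, as does Pfkfb3, which has 1 library at 86.7 FPKM on day 7.

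Smooth muscle and pericyte genes did not pass. All 14 were below 0 (median -0.25), 5 had an unadjusted p under 0.05 and limma called 0. Acta2, the actin of smooth muscle and myofibroblasts, stood at -0.91 ± 0.30 (adjusted p = 0.0929), and Notch3, the receptor that keeps arterial smooth muscle mature, at -0.36 ± 0.12 (adjusted p = 0.0923).

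Leo1 encodes a subunit of the PAF1 complex, which travels with RNA polymerase II during elongation. It was at 12.96, 13.8 and 13.7 FPKM in PBS_D3 and 5.32, 6.00 and 7.37 FPKM in aNMP-2a_D3. Day 7 values were 13.9, 15.1 and 13.8 FPKM with PBS and 7.55, 8.86 and 9.16 FPKM with aNMP-2b, and day 14 values 10.7, 11.5 and 10.8 FPKM with PBS and 8.75, 5.73 and 9.31 FPKM with aNMP-2c. No nanomedicine library reached a PBS library. Its log2 fold change was -0.75 ± 0.10 (limma adjusted p = 0.00317), it was called without any 1 library, and it was at -0.77 without day 7 (limma adjusted p = 0.071) and -0.65 without the libraries rich in Myl7 (0.0772). Of the other 5 subunits 0 passed by limma, with Paf1 at -0.13 ± 0.06 (adjusted p = 0.225, unadjusted p = 0.0498).

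Genes outside the lists were also among the 12 smallest p and were picked after their values were seen. Slc46a3, a lysosomal transporter, rose by 0.58, Tspan4, a tetraspanin of migrasomes, by 0.77, and Fam76a by 0.37. Efr3b, which anchors a lipid kinase at the cell membrane, fell by 0.52, Magix fell by 0.64 and Etl4 fell by 0.43. All 9 against 9 libraries stood apart for Fam76a, Efr3b, Magix and Etl4. These 6 were called in all 18 fits without 1 library (limma adjusted p between 0.00317 and 0.00836 with all libraries). Of them only Tspan4 was called without day 7, at 0.76. Without day 3 neither Tspan4 (0.75, limma adjusted p = 0.0511) nor Fam76a (0.30, 0.0501) was called, and without day 14 Magix was not (-0.62, 0.052).

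Some heart muscle genes fell. Of 18 sarcomere and Z-disc genes, 3 fell (16.7%, against 1.43% of all genes) and 14 were below 0, with a median of -0.23. Tnnc1, cardiac troponin C, did not overlap between groups on any day, with 3426, 3426 and 3565 FPKM in PBS_D3 and 3085, 2826 and 3001 FPKM in aNMP-2a_D3 (-0.35 ± 0.07 over all days, limma adjusted p = 0.0223). It was not called without aNMP-2a+PBS_D7 replicate 3 or aNMP-2a+2b+PBS_D14 replicate 2 (limma adjusted p up to 0.052). The adult myosin chain Myh6 fell by 0.58 and the Z-disc actinin Actn2 by 0.32 (limma adjusted p = 0.0334 and 0.0279), called in 8 and 13 of 18 fits without 1 library, and without any 1 day none of these 3 was called. Myh7, the fetal myosin chain, was at 1.66 ± 0.64 and did not pass (limma adjusted p = 0.144), with 98.3, 1099 and 17.1 FPKM in aNMP-2a+2b+2c_D14. Ventricular markers summed to 32800 to 41970 FPKM against 41290 to 44200 FPKM with PBS on day 3, 25770 to 41620 against 39570 to 52300 FPKM on day 7, and 32160 to 53100 against 50630 to 60370 FPKM on day 14, and their part in these results was not tested.

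Among the largest falls, Scn4b, a sodium channel subunit, fell by 1.06, Bdh1, which oxidises ketone bodies, by 0.95 and Ankrd23, a titin-binding protein of the sarcomere, by 0.84 (limma adjusted p = 0.0443, 0.0448 and 0.027). They were called in 4, 5 and 14 of 18 fits without 1 library, and with any 1 day left out none of them was called. The rest of the 12 largest falls, besides Arntl, Npas2 and Pcdh12, had low levels: Gm3776, Vwa3a, Cabp1, Olfr1396, Klhl34 and Lingo3 fell by between 1.00 (Gm3776) and 0.78 (Lingo3) and lay at or below 9.62 FPKM in all libraries. Of these, Vwa3a, the calcium sensor gene Cabp1 and the olfactory receptor gene Olfr1396 were called in all 18 such fits. Without day 7 none of Vwa3a, Cabp1 and Olfr1396 was called (limma adjusted p = 0.071, 0.0812 and 0.157). Without day 14 Cabp1 and Olfr1396 were not called either (limma adjusted p = 0.103 and 0.0804).

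Energy genes of the mitochondrion were below 0 together without passing. All 25 respiratory chain and ATP synthase genes were negative (median -0.23; 8 with an unadjusted p under 0.05, 0 called by limma), with the complex III core gene Uqcrc1 at -0.33 ± 0.11 (adjusted p = 0.083). Of 25 fatty acid oxidation genes 24 were negative (median -0.19; 5 with an unadjusted p under 0.05, 0 called), with Acadvl, which starts the oxidation of long chains, at -0.33 ± 0.13 (limma adjusted p = 0.144). Pdk4, which blocks the entry of pyruvate into the mitochondrion's cycle, stood at -1.23 ± 0.50 and did not pass (limma adjusted p = 0.16).

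Pfkfb3, which makes the activator of phosphofructokinase and so speeds glycolysis, rose. It was at 10.4, 14.4 and 9.95 FPKM in PBS_D3 and 14.7, 48.1 and 30.01 FPKM in aNMP-2a_D3, at 11.9, 5.79 and 5.99 and 20.98, 14.9 and 86.7 FPKM on day 7, and at 7.83, 7.60 and 11.5 and 20.8, 32.5 and 40.3 FPKM on day 14, PBS first each time. All 9 nanomedicine libraries lay above all 9 PBS libraries (1.64 ± 0.30, limma adjusted p = 0.0137, exact permutation p = 0.00025). Without day 7 or 14 it was at 1.48 and 1.59 and not called (limma adjusted p = 0.071 and 0.102), nor without the libraries rich in Myl7 (2.36, 0.0568). Of 22 glycolysis and hypoxia genes 2 fell (9.09%, against 1.43% of all genes), and the list median was -0.05. These were Pfkl, a phosphofructokinase, which fell by 0.27, and Pkm, pyruvate kinase, by 0.22. Pfkl held in all 18 fits without 1 library and Pkm in 5. Without day 3 or 7 Pfkl was not called (limma adjusted p = 0.0621 and 0.0866), and Pkm was not called with any 1 day left out. Gpx1, which reduces peroxides, rose by 0.53 (limma adjusted p = 0.0197), with no overlap on any day, as the single call among 17 NRF2 and antioxidant genes (5.88%, near the 3.01% of all genes), and was not called without any 1 day (0.62, 0.50 and 0.47).

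Few matrix genes passed. Of 17 collagen chains and 16 matricellular genes limma called 0 (3 and 0 with an unadjusted p under 0.05), with medians of -0.10 and 0.02. Timp3, an inhibitor of matrix proteases that stays bound to the matrix, was the single call among 20 proteases and inhibitors (5%, near the 3.01% of all genes called higher). It was at 59.2, 61.4 and 64.05 FPKM in PBS_D3 and 134, 136 and 147 FPKM in aNMP-2a_D3, and over all days ran from 59.2 to 109 FPKM (median 74.3) with PBS last and from 86.8 to 154 FPKM (median 136) with a nanomedicine last (0.78 ± 0.13, limma adjusted p = 0.00847). It was not called without day 3 (0.59, 0.106 by limma) or day 7 (0.86, 0.071), nor without the libraries rich in Myl7 (0.91, 0.0669). Of 12 resting fibroblast genes 2 rose (16.7%, against 3.01% of all genes). They were the surface gene Ly6a, which interferon also induces, at 0.95 ± 0.26, and Dcn, the small proteoglycan decorin, at 0.46 ± 0.13 (limma adjusted p = 0.0457 and 0.0488). Each was called in 4 of 18 fits without 1 library.

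Genes of neighbouring tissues were not called over all days but stood apart on some. Of 9 atrial, 13 mesothelial and 11 fat cell genes limma called 0 (0, 1 and 0 at an unadjusted p under 0.05), although their medians were 1.51, 0.56 and 0.47. Myl7 ran from 0.24 to 1350.3 FPKM (median 2.53) with PBS last and from 1.08 to 2982 FPKM (median 382) with a nanomedicine last (2.58 ± 2.04, limma adjusted p = 0.486). Upk3b, of the outer lining, and Adipoq, of fat, had log2 fold changes of 3.18, 1.36 and -2.88 and of 2.41, 2.76 and -2.11 on days 3, 7 and 14. With day 14 left out both were called, Upk3b at 2.27 and Adipoq at 2.58 (limma adjusted p = 0.0288 and 0.0208). Mesothelial markers (7 genes) summed to 83.2 to 105.6 FPKM against 10.33 to 26.08 FPKM with PBS on day 3, 205 to 221.1 against 47.42 to 141 FPKM on day 7, and 8.43 to 270 against 95.03 to 167.4 FPKM on day 14. Fat cell markers (5 genes) summed to 3.29 to 33.88 against 0.78 to 1.96 FPKM on day 3, 757.6 to 1344 against 94.75 to 270 FPKM on day 7, and 3.97 to 806.8 against 157.6 to 831.4 FPKM on day 14. Both sums thus stood apart on days 3 and 7 and overlapped on day 14. With atrial, mesothelial and fat scores as covariates, limma called 8 genes of the Per list (median 0.975) and 16 GTPase genes (2.12). It called 23 interferon-stimulated (1.28), 19 class I, 8 class II, 10 killer cell, 9 complement and 6 M2c genes, and Cldn5 was no longer called. Beyond this fit, the part of these tissues in the other results was not tested. Nppa, the atrial peptide, stood at 1.51 ± 0.83 and at -0.10 without the libraries rich in Myl7. Angptl7, of valve-like matrix, was at 1.45 ± 0.44 and did not pass either (limma adjusted p = 0.0695). Cell cycle (28 genes), unfolded protein response (20) and immediate early genes (16) gave 0 calls by limma (1, 2 and 3 at an unadjusted p under 0.05) and medians of -0.03, 0.02 and 0.12. Valve-like matrix (9 genes), recruited macrophage (16), B cell (8), red cell (12) and fetal genes (11) also gave 0 calls (3, 5, 1, 3 and 2 at an unadjusted p under 0.05), with medians of 0.85, 0.33, 0.25, 0.25 and -0.04. Among inflammation genes 2 of 19 rose (10.5%, Cxcl9 and Cxcl10), with a median of 0.25. Among resident macrophage genes 1 of 13 rose (7.69%, Timd4), with a median of 0.30. Among PFKFB and PDK genes 1 of 10 rose (10%, Pfkfb3), with a median of -0.06. Of all genes 3.01% were called higher, so counts this small say little of these lists.

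Whether the effect differed between days, where the agents differ too, was tested in 1 fit of the 6 groups. Limma called 0 genes (497 with an unadjusted p under 0.05; smallest adjusted p 0.842), and 85 when aNMP-2a+2b+2c_D14 replicate 1 was left out. H2-Q7, a class I molecule, had the smallest unadjusted p, 7.49e-05, with log2 fold changes of -0.34, 1.28 and 1.03 on days 3, 7 and 14. The next smallest were Prf1 (0.000128; -0.48, 1.75 and 0.87), the class I gene H2-D1 (0.000509; -0.17, 1.13 and 0.92), Gzma (0.000629; -0.24, 2.64 and 1.61), then Gm8909, Thrsp and Irf7, the regulatory factor that amplifies type I interferon (0.00065; -0.07, 2.49 and 1.81), and last of these 8 the class I gene H2-Q6 (0.000724; -0.15, 1.16 and 0.93). H2-Q7, Prf1, H2-D1, Gzma, Irf7 and H2-Q6 were each below 0 on day 3 and above 0 on days 7 and 14, and the difference between days passed in none of them. The clock and interferon values by day are therefore not shown to differ.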

How the data were processed

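Polyadenylated RNA of 18 heart samples was sequenced. The deposited tables hold FPKM per gene, which the authors made from their reads, in 3 tables of 6 libraries, 1 per day; the unit was read from the values. Per the submitters' processing notes, HISAT2 2.1.0, Bowtie2 2.2.5, RSEM 1.2.8 and GRCm38.p6 were used, with their roles not given. No counts were used, so read depth and its error are unknown. Tables were joined by gene symbol, and 13116 genes with at least 1 FPKM in 3 or more libraries were tested as log2(FPKM + 0.5) with limma 3.58.1 (R 4.3.3; trended, robust), with day and last injection as terms and Benjamini-Hochberg adjustment over all genes. Such log2 fold changes understate changes of low genes. Each day has its own table, so tests compare libraries within days, and statements on all 9 against all 9 libraries are descriptions across tables. A fit of the 6 groups tested the difference between days. The code was tested on simulated data.

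By rule, the text names the called genes of 1 sign on all days that had the 12 highest and 12 lowest log2 fold changes, the 8 smallest p between days, and examples from 43 gene lists. Genes named for a small p, and examples from the lists, were chosen after their values were seen. Members and lists were chosen with earlier results of these data known. Exact permutation tests reassigned libraries within days over 8000 arrangements, two-sided. Alternatives were other pseudocounts, filters, scalings and fits, a replicate block, and leaving out libraries or days. Figures used Python 3.11.15 and matplotlib 3.10.9.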

Additional observations from a re-analysis of the deposited data

How the results depend on the processing

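The number of genes called (582, of which 67.9% higher) moved by over 1.5 times under these settings: 367 with no filter on low values, 1650 with array weights, 1087 with an atrial score and 1376 with atrial, mesothelial and fat scores as covariates, and 0 without the libraries rich in Myl7 (limma, 1951 at an unadjusted p under 0.05). It was 216, 13 and 140 with day 3, 7 or 14 left out, and 234, 1 and 0 on days 3, 7 and 14 alone. Leaving out 1 library gave 113 to 1091 genes, and 0 to 85 for the difference between days. Quantile scaling gave 732 genes, 44% of them higher. Upper quartile and median-of-ratios scaling gave 610 and 529 genes, 56.9% and 58.6% higher. The causes were not tested.

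With the replicate number as a block, 148 genes were called, 145 of them among the 582, and MHC class I, MHC class II and killer cell lists had 0 calls by limma. The GTPase list had 7 calls with this block (13 in the main fit) and the interferon-stimulated list 8 (20). Complement had 2 (6), the M2c list 1 (4) and the Per list 6 (8). Same-numbered libraries correlated between -0.178 and 0.359 in their deviations, and differently numbered ones of a day between -0.545 and 0.326. These ranges overlap widely and do not settle whether the numbers pair samples. The main fit took them not to.

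Signs reversed as follows. On day 3 alone Nr1d1 was at -0.047, Gbp6 at -0.46, Irf7 at -0.072, H2-Q7 at -0.34, H2-D1 at -0.17, Klrk1 at -0.056, Gzma at -0.24, Prf1 at -0.48 and Chil3 at -0.46. Cry1 was at -0.13 on day 7 alone. On day 14 alone Nr1d1 was at -0.020, Myl7 at -1.71, Upk3b at -2.88 and Adipoq at -2.11. Nr1d1 was at -0.033 without day 7, and Upk3b at -0.76 without day 3 and at -0.29 with the 3 scores. The mesothelial score includes Upk3b itself, so its reversal with the scores is partly built in. Nppa was at -0.10 without the libraries rich in Myl7.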
